A study of Mus musculus with 19 samples.

Results

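White adipocyte genes were followed in mouse quadriceps through 9 genes, Adipoq, Lep, Cfd, Retn, Fabp4, Cidec, Lipe, Pparg and Acvr1c. They were found by gene name among the probes of the array that are not controls, and are 9 of 24741 genes tested. They were read by 12 of 32026 probes tested, since Retn, Cidec and Acvr1c have a pair of probes each. Every member was well above background on all 19 arrays and none was saturated, so no member was lost to the filter on dim probes.

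The study compared AR113Q mice with wild-type controls (CTR). AR113Q mice carry a knock-in allele with an expanded polyglutamine tract, as in spinal and bulbar muscular atrophy (SBMA). All mice were male C57Bl6J and 180 days old, and from 40 days of age they ate either normal chow (NCD) or a diet high in fat (HFD). Total RNA was read on 1-colour Agilent arrays in 5 AR113Q and 5 CTR samples on chow (AR113Q-NCD, CTR-NCD) and 5 AR113Q and 4 CTR samples on the high-fat diet (AR113Q-HFD, CTR-HFD). The labels do not state whether a sample is 1 mouse, so p-values measure only the spread between these samples. On the scale used here, log2 signal less the 75th percentile of the array, the muscle genes Acta1, Ckm and Myh4 read 8.84 to 9.57, 7.65 to 8.73 and 8.15 to 8.91 on the 19 arrays.

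White adipocytes store triglyceride in a large droplet, release it as fatty acids by lipolysis, and secrete hormones known as adipokines. In skeletal muscle such cells lie between bundles of fibers and around the muscle, while Fabp4 is also made by capillary endothelium, and Lipe and Pparg also by other cells of muscle. In bulk RNA, fewer adipocytes and less RNA per adipocyte cannot be told apart. A log2 value is given for each member on its own scale, and values of different genes were not set against each other as levels.

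Adipoq encodes adiponectin, a hormone secreted by adipocytes. Its probe, A_51_P458451, lies at chr16:23157576-23157635 on the plus strand of mm9, the build of the array files, which name no exon or UTR for it. The 60 bases of this probe are printed because the other members are set against its signal, and the 250 bases before the RefSeq start because Adipoq moved together with other members from array to array. That window is chr16:23146286-23146535 on the plus strand of GRCm38.p6, and capitals mark CCAAT or its reverse complement.
Adipoq probe: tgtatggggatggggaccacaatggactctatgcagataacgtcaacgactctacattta
Adipoq promoter: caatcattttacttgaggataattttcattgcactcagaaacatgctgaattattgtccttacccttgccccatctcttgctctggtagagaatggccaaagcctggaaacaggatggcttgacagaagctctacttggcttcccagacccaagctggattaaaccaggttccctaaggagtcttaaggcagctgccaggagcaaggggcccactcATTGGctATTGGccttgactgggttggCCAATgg
On normal chow, the log2 level of Adipoq in replicates 1 to 5 was 1.34, 2.01, 2.91, 3.72 and 2.53 in CTR (mean 2.50 ± 0.90, SD, n = 5) and 1.84, 2.0, 3.55, 2.81 and 2.86 in AR113Q (2.61 ± 0.70, SD, n = 5). On the high-fat diet it was 1.71, 3.75, 1.46 and 3.39 in CTR (2.58 ± 1.16, SD, n = 4) and 1.83, 2.30, 3.46, 1.07 and 2.07 in AR113Q (2.15 ± 0.87, SD, n = 5). Each group held both high and low arrays, and the 4 groups overlapped. CTR-HFD had a pair of high and a pair of low arrays with none between them. Over all arrays Adipoq spanned a 6.38-fold range, from AR113Q-HFD replicate 4 to CTR-HFD replicate 2. AR113Q-NCD differed from CTR-NCD by 0.12 on the log2 scale (SE 0.54, 95% interval -1.03 to 1.26, adjusted p = 0.925 in limma). The interval leaves room for a difference of more than a log2 unit in either direction. AR113Q-HFD differed from CTR-HFD by -0.43 (SE 0.58, adjusted p = 0.689 in limma). With single arrays left out the chow difference of Adipoq ran from -0.18 to 0.42 and the high-fat diet difference from -0.80 to -0.04. CTR-HFD differed from CTR-NCD by 0.08, and AR113Q-HFD from AR113Q-NCD by -0.47, with adjusted p of 0.993 and 0.985 in limma. With single arrays left out these diet differences ran from -0.31 to 0.45 and from -0.80 to -0.20. The arrays lay on 5 slides that each held several groups, and within slides the genotype difference ran from -0.91 to 0.65 on chow and from -1.45 to 2.0 on the high-fat diet. With the slide as a block these differences were 0.12 and -0.46.

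Lep encodes leptin, the adipokine that reports fat stores to the brain. Its probe, A_52_P374882 at chr6:29023234-29023293 on the plus strand of mm9, was spotted 10 times on each array. The window before its RefSeq start, chr6:29059971-29060220 on the plus strand of GRCm38.p6, is printed beside those of Retn and Cfd, which follow, so that the adipokine promoters can be compared. Capitals mark TTGCNNAA, a sequence of the type bound by C/EBP factors, and TATAA, which here matched on both strands at overlapping bases.
Lep promoter: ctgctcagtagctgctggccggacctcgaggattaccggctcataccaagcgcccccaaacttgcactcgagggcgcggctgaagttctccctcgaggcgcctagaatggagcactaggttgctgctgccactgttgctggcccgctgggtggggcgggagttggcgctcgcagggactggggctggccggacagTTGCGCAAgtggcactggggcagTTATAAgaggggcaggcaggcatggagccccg
On normal chow, the log2 level of Lep was -3.30, -3.79, -3.04, -2.39 and -3.55 in CTR (-3.21 ± 0.54, SD, n = 5) and -4.0, -4.71, -2.06, -3.05 and -3.90 in AR113Q (-3.54 ± 1.02, SD, n = 5). On the high-fat diet it was -2.89, -1.16, -3.57 and -1.24 in CTR (-2.21 ± 1.20, SD, n = 4) and -3.83, -2.79, -2.94, -3.56 and -4.71 in AR113Q (-3.57 ± 0.77, SD, n = 5). The highest arrays were replicates 2 and 4 of CTR-HFD, which were also the high arrays of that group for Adipoq. The other CTR-HFD arrays lay among those of AR113Q-HFD, so the groups overlapped. Lep spanned an 11.7-fold range, the widest of the members' brightest probes. The 10 spots of an array had a median SD of 0.12 on the log2 scale, against an SD of 0.89 between arrays of a group. AR113Q-HFD differed from CTR-HFD by -1.35 (SE 0.57, 95% interval -2.56 to -0.15), which did not pass after adjustment (adjusted p = 0.121 in limma). Within the 4 slides that held both groups this difference was -0.94, -1.63, 0.63 and -3.47, and with the slide as a block it was -1.46 (adjusted p = 0.0993 in limma). With single arrays left out it ran from -1.80 without CTR-HFD replicate 3, the only case that passed (adjusted p = 0.0373 in limma), to -1.0 without CTR-HFD replicate 2, and over the other settings from -1.46 to -0.80 with normexp. AR113Q-NCD differed from CTR-NCD by -0.33 (SE 0.54, adjusted p = 0.759 in limma). This chow difference ran from -0.70 to -0.04 with single arrays left out, and from -0.81 to -0.27 over the other settings. The test of the difference between these genotype effects, the genotype by diet interaction, gave -1.02 for Lep (adjusted p = 1 in limma), and 0.01 with normexp. CTR-HFD differed from CTR-NCD by 1.0 (SE 0.57, adjusted p = 0.657 in limma), a direction that turned with normexp background correction, where it was -0.11. Averaged over diets, the genotype difference of Lep was -0.84 (adjusted p = 0.124 in limma), and with single arrays left out it ran from -1.07 to -0.67. It passed without AR113Q-NCD replicate 3 (-1.03, adjusted p = 0.0483 in limma) or without CTR-HFD replicate 3 (-1.07, adjusted p = 0.0432 in limma).

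Cfd encodes adipsin, complement factor D, the protease that starts the alternative complement pathway, and its probe, A_51_P156955, lies at chr10:79355302-79355361 on the plus strand of mm9. Its promoter window is chr10:79890603-79890852 on the plus strand of GRCm38.p6.
Cfd promoter: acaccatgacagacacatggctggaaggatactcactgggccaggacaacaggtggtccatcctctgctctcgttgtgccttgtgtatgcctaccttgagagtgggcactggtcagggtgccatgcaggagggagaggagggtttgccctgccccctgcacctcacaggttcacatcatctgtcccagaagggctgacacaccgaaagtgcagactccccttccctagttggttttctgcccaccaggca
On normal chow, the log2 level of Cfd was 3.85, 4.29, 5.79, 6.59 and 5.47 in CTR (5.20 ± 1.12, SD, n = 5) and 4.84, 4.70, 5.18, 5.08 and 5.93 in AR113Q (5.15 ± 0.48, SD, n = 5). On the high-fat diet it was 3.48, 4.98, 3.34 and 4.34 in CTR (4.04 ± 0.77, SD, n = 4) and 5.07, 4.95, 6.70, 3.64 and 5.66 in AR113Q (5.20 ± 1.12, SD, n = 5). Replicates 1, 3 and 4 of CTR-HFD were among the lower arrays, while replicate 2, at 4.98, was not. Low arrays of each other group lay in the range of CTR-HFD. AR113Q-HFD differed from CTR-HFD by 1.17 (SE 0.59, 95% interval -0.07 to 2.41, adjusted p = 0.204 in limma). Within slides this difference was 1.59, -0.04, 3.36 and 1.32, and with the slide as a block it was 1.19 (adjusted p = 0.167 in limma). CTR-HFD differed from CTR-NCD by -1.16 (SE 0.59, adjusted p = 0.605 in limma), and within slides by -0.37, 0.70, -2.45 and -1.14. The means of Lep and Cfd in CTR-HFD thus lay on opposite sides of those in CTR-NCD, the first above and the second below. With normexp, where the difference of Lep was -0.11, both lay below.

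Retn encodes resistin, another adipokine. Its probes lie on the plus strand of mm9, A_55_P2428514 at chr8:3659757-3659816 and A_55_P1984806 at chr8:3657312-3657371, and the second is printed because it was the Retn probe that passed once the Adipoq level was in the fit. The promoter window is chr8:3655520-3655769 on the plus strand of GRCm38.p6.
Retn probe: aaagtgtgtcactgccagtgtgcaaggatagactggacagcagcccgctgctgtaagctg
Retn promoter: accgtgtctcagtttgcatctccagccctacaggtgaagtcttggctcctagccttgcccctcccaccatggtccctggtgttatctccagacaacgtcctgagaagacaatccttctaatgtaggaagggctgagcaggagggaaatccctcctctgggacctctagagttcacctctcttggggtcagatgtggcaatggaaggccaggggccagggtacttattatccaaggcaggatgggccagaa
Through A_55_P2428514 Retn ran from 0.45 in AR113Q-HFD replicate 4 to 3.19 in CTR-NCD replicate 4, a 6.69-fold range, and its probes gave the same order of arrays almost throughout (r = 0.998, n = 19). The means of A_55_P2428514 were 2.17 ± 0.83 in CTR and 2.46 ± 0.65 in AR113Q on chow (SD, n = 5 each), and 1.74 ± 1.30 in CTR (n = 4) and 1.66 ± 0.87 in AR113Q (n = 5) on the high-fat diet. CTR-HFD again fell into a pair of high arrays, 2.80 and 2.93, and a pair of low ones, 0.50 and 0.75. The widest difference of Retn between 2 groups was -0.80 through A_55_P2428514 and -0.81 through A_55_P1984806, between AR113Q-HFD and AR113Q-NCD (adjusted p = 0.892 and 0.893 in limma). Through the first it was below 0 on 4 of 5 slides. With single arrays left out it ran from -1.11 to -0.50 through the first and from -1.11 to -0.52 through the second.

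**Figure D1:**
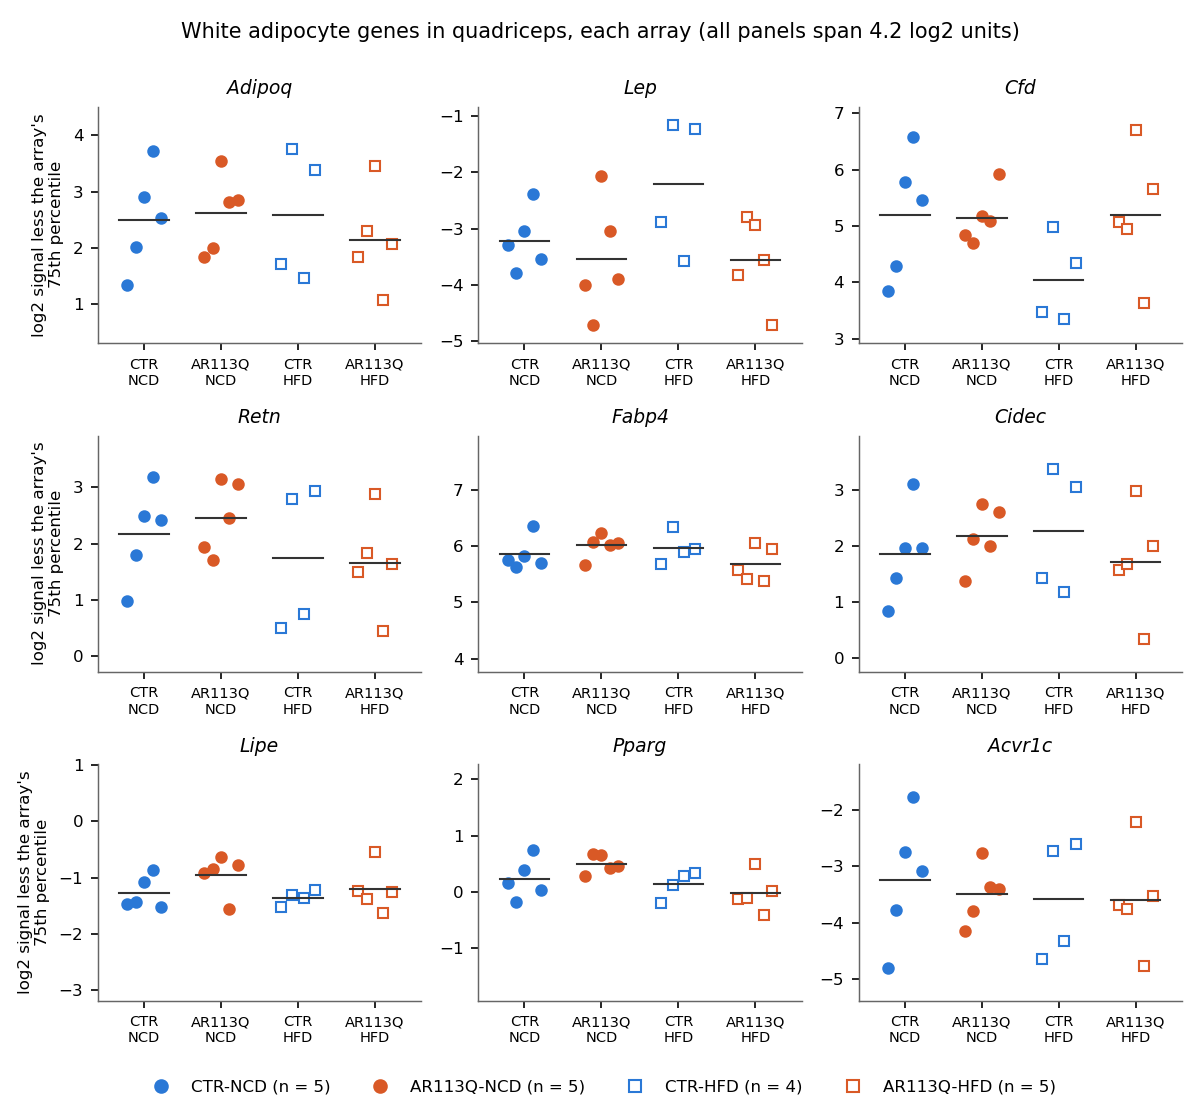
Each point is 1 array, on the log2 scale less the 75th percentile of the array, for the brightest probe of each of the 9 members, and each line is the mean of a group. Filled circles are NCD and open squares HFD, with CTR in blue and AR113Q in orange. All panels span the same number of log2 units, so that the wide spread of Adipoq, Lep, Cfd, Retn, Cidec and Acvr1c within groups can be seen beside the narrow spread of Fabp4, Lipe and Pparg.

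The genes of fatty acid handling and droplets differed in their spread. Fabp4, a fatty acid carrier (A_51_P336833, chr3:10204452-10204511, minus strand of mm9), had group means of 5.85 ± 0.29 in CTR and 6.01 ± 0.21 in AR113Q on chow (SD, n = 5 each), and 5.96 ± 0.27 in CTR (n = 4) and 5.68 ± 0.31 in AR113Q (n = 5) on the high-fat diet. It spanned only a 1.95-fold range, from 5.38 to 6.35, between the arrays that were lowest and highest for Retn through A_55_P2428514 as well. Cidec coats lipid droplets and helps them fuse, and through A_55_P1969131 it ran from 0.35 to 3.37, an 8.08-fold range, with the lowest value again in AR113Q-HFD replicate 4. Its probes lie on the minus strand of mm9, A_55_P1969131 at chr6:113374630-113374689 and A_55_P1969128 at chr6:113378116-113378175. They followed each other over the arrays (r = 0.958, n = 19), although their fold changes lay up to 0.39 apart. Lipe, hormone-sensitive lipase, frees fatty acids from stored glycerides (A_51_P435363, chr7:26165828-26165887, minus strand of mm9), and spanned a 2.12-fold range, from -1.63 to -0.54. Lipe had the smallest adjusted p of the members between AR113Q-NCD and CTR-NCD, with a difference of 0.33 (SE 0.20, adjusted p = 0.294 in limma) that was above 0 on 4 of 5 slides, 0.26 to 0.48 with single arrays left out and 0.06 to 0.39 over the other settings. The printed Cidec probe is A_55_P1969128, which ran from -2.59 to 0.31 (7.49-fold), and it and the probe of Lipe stand for a member with a wide and one with a narrow range.
Cidec probe: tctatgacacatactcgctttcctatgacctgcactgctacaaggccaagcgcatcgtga
Lipe probe: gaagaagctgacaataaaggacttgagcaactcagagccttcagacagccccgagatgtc

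Pparg encodes the nuclear receptor that drives adipocyte differentiation, and was read by 10 spots of A_51_P106799 on each array (chr6:115440213-115440272, plus strand of mm9). On normal chow, its log2 level was 0.16, -0.17, 0.39, 0.75 and 0.03 in CTR (0.23 ± 0.35, SD, n = 5) and 0.28, 0.67, 0.65, 0.42 and 0.47 in AR113Q (0.50 ± 0.16, SD, n = 5). On the high-fat diet it was -0.19, 0.13, 0.29 and 0.33 in CTR (0.14 ± 0.24, SD, n = 4) and -0.13, -0.10, 0.49, -0.41 and 0.02 in AR113Q (-0.03 ± 0.33, SD, n = 5). AR113Q-HFD replicate 3 lay among the AR113Q-NCD arrays and the other 4 lay below all of them. AR113Q-HFD differed from AR113Q-NCD by -0.52 (SE 0.17, 95% interval -0.89 to -0.15, adjusted p = 0.544 in limma). The difference was below 0 on 5 of 5 slides, from -0.84 to -0.16, and with the slide as a block it was -0.52 (adjusted p = 0.34 in limma). The interaction of Pparg was -0.43 (adjusted p = 1 in limma), and CTR-HFD differed from CTR-NCD by -0.09. Acvr1c encodes ALK7, a type I receptor of the activin family found in adipocytes, and its probes lie on the minus strand of mm9, A_55_P1975140 at chr2:58124244-58124303 and A_55_P2064203 at chr2:58119888-58119947. Through the first it ran from -4.81 in CTR-NCD replicate 1 to -1.76 in CTR-NCD replicate 4, an 8.32-fold range, and through the second from -5.30 in AR113Q-HFD replicate 4 to -2.09 in CTR-NCD replicate 4, a 9.25-fold range. The probes of Acvr1c followed each other closely (r = 0.973, n = 19).

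The question behind the genotype comparisons is whether the AR113Q allele changes these genes in muscle, and behind the diet comparisons whether the high-fat diet does. Between AR113Q-NCD and CTR-NCD, 0 of 9 members passed an adjusted p under 0.05 in limma and 0 had an unadjusted p under 0.05, while 17.6% of all probes passed. Between AR113Q-HFD and CTR-HFD, 0 of 9 passed in limma and 1, Lep, had an unadjusted p under 0.05, while 17.9% of all probes passed. Over both diets together the genotype comparison called 0 of 9 members in limma, against 29.3% of all probes. Lep had an unadjusted p under 0.05 there, but 0.0544 in limma with the slide as a block. These shares of all probes depended on the scaling. For genotype on chow, on the high-fat diet and averaged over diets they were 7.46%, 7.66% and 19.6% with median centring. With normexp they were 2.55%, 2.91% and 7.18%, and with quantile normalization 18.2%, 18.1% and 30.8%. The diet comparisons called few probes anywhere. In CTR mice 0 of 9 members and 0% of probes passed in limma, with 0 members at an unadjusted p under 0.05. In AR113Q mice 0 of 9 members passed in limma and Pparg had an unadjusted p under 0.05, against 0.0250% of probes that passed. Averaged over genotypes, the diet comparison called 0 of 9 members in limma, with Pparg at an unadjusted p under 0.05, against 0.0250% of probes. For the interaction, limma called 0 of 9 members and 0% of probes, and 0 members had an unadjusted p under 0.05. The unadjusted p was under 0.05 for 28.5%, 29%, 8.66% and 6.73% of probes for genotype on chow, genotype on the high-fat diet, diet in CTR and diet in AR113Q. It was so for 38.5% for genotype averaged over diets, 11.2% for diet averaged over genotypes and 4.65% for the interaction. A p above the threshold does not show that a member was the same in 2 groups, as the width of the intervals shows.

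The median log2 difference over the 9 members was 0.16 between AR113Q-NCD and CTR-NCD, against -0.06 over all genes, with 6 members above 0 and 3 below. With single arrays left out this chow median ran from -0.01, without CTR-NCD replicate 1, to 0.40, without CTR-NCD replicate 4. Between AR113Q-HFD and CTR-HFD the members' median was -0.16 against -0.08, with 2 members above 0 and 7 below. Between CTR-HFD and CTR-NCD it was -0.07 against 0.02, and ran from -0.16 to 0.04 with single arrays left out. Between AR113Q-HFD and AR113Q-NCD it was -0.33 against 0.00, and ran from -0.44, without AR113Q-HFD replicate 3, to -0.16, without AR113Q-HFD replicate 4. In the last of these, 8 of 9 members lay below 0 and Cfd, at 0.05, was the exception. In the same comparison limma called 0 of 7 slow fiber genes and 0 of 6 endothelial genes, with 5 and 4 at an unadjusted p under 0.05 and medians of -2.59 and -0.26, so negative medians were not particular to the members. The comparisons share groups, so these counts are not independent of each other. Most members also moved together from array to array, so the members within a count are not independent either.

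**Figure D2:**
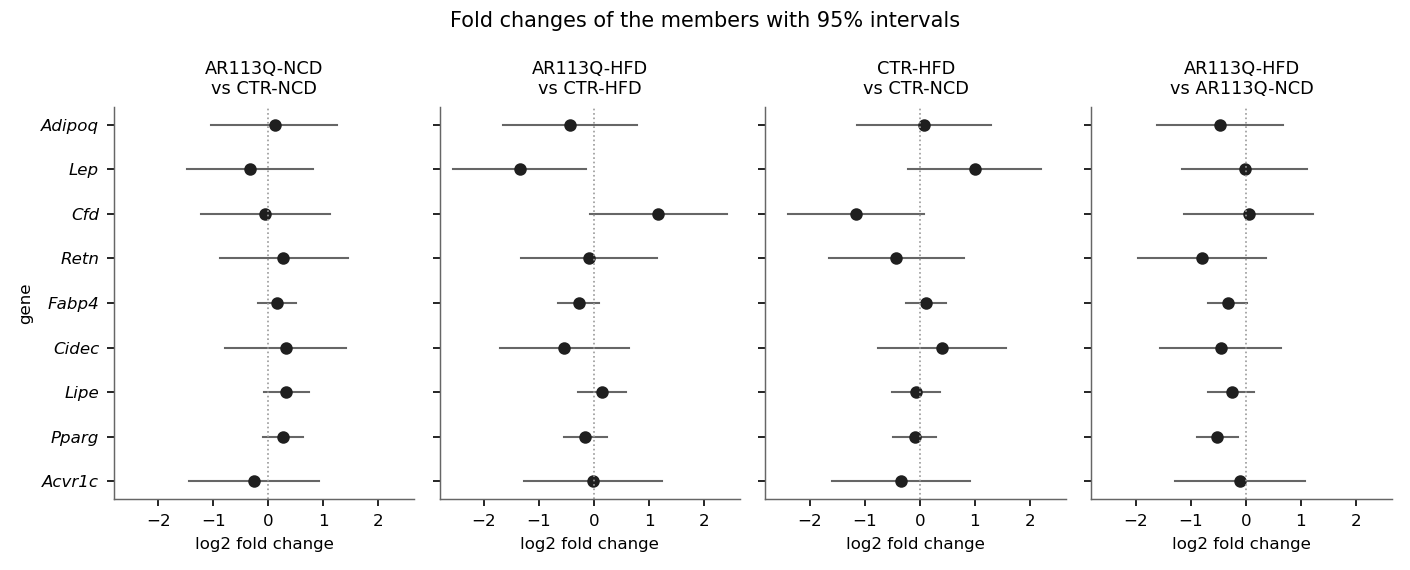
Points are log2 fold changes of the brightest probe of each member in 4 comparisons, and bars are 95% intervals from limma. The bars of Adipoq, Lep, Cfd, Retn, Cidec and Acvr1c span more than 2 log2 units, and those of Fabp4, Lipe and Pparg less than 1.

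The spread within groups split the members. The SD within groups was 0.86 to 0.93 for the probes of Adipoq, Lep, Cfd, Retn, Cidec and Acvr1c, which is at percentiles 92.8 to 94.4 of all probes tested. For Fabp4, Lipe and Pparg it was 0.27, 0.32 and 0.28, at percentiles 54.7, 60.7 and 56.6, and the median probe had an SD of 0.24. Between groups lay 5.21% of the variance of Adipoq, 2.89% of that of Acvr1c, 7.57% of that of Cidec and 13.9% of that of Retn. For Fabp4 and Lipe it was 22.5% each, for Cfd 24.7%, for Lep 30% and for Pparg 37.2%. With 4 groups and 19 arrays some of the variance lies between groups by chance alone, and these shares were not tested. Most members were high or low on the same arrays, Lep least so, with r = 0.40 to the mean of the other members (0.57 less group means, n = 19). The mean of their standardised values was highest in CTR-NCD replicate 4 (1.44), AR113Q-HFD replicate 3 (1.15), AR113Q-NCD replicate 3 (1.11) and CTR-HFD replicate 2 (0.90), which are samples of all 4 groups. On the first 3 of these arrays 9 of 9 members were above their own mean. The lowest mean was that of AR113Q-HFD replicate 4 (-1.51), where 0 of 9 members were above their own mean, and this array was the lowest of all for Adipoq, Fabp4, Cidec, Lipe and Pparg, and for Retn through A_55_P2428514. Group means of this value were 0.03 in CTR and 0.31 in AR113Q on chow (SD 0.93 and 0.56), and -0.03 in CTR and -0.32 in AR113Q on the high-fat diet (SD 0.97 and 0.95). By slide, the mean less the group means ran from -0.68 on slide 1 to 0.47 on slide 3, and the part of the slide in these values was not tested.

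**Figure D3:**
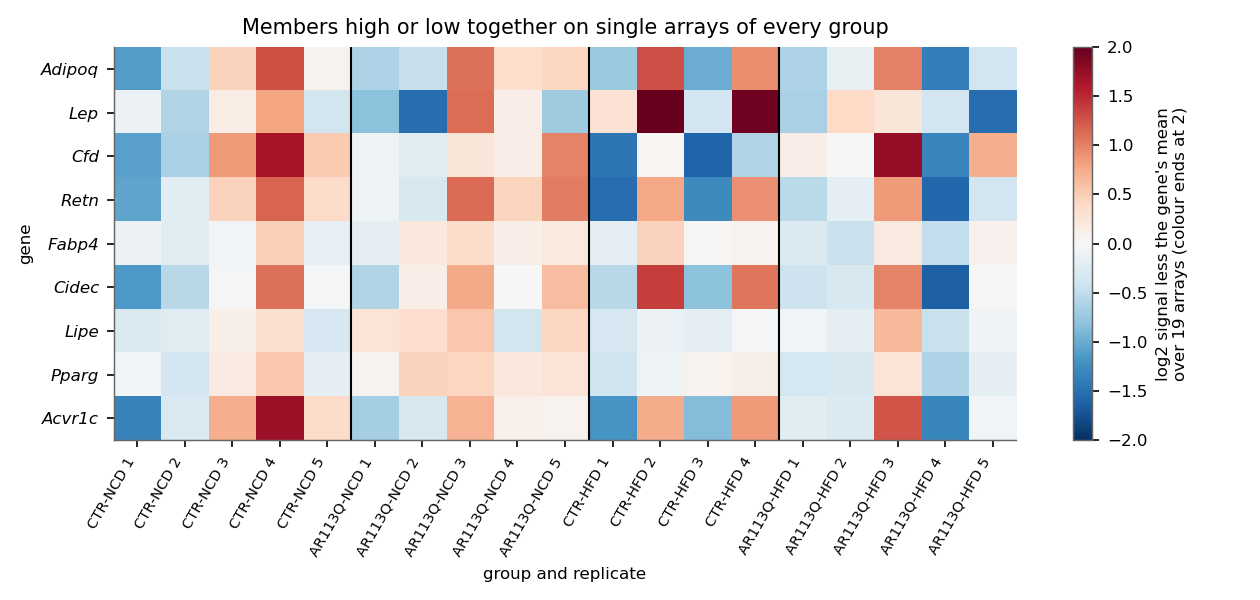
Rows are the 9 members and columns the 19 arrays by group and replicate, with colour for the log2 level less the mean of the gene over all arrays. Red columns such as CTR-NCD 4, AR113Q-NCD 3 and AR113Q-HFD 3 and blue columns such as CTR-NCD 1 and AR113Q-HFD 4 occur within the same groups.

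Correlations over the 19 arrays are given as a description. Among the 36 pairs of members the median r was 0.66, with 9 pairs above 0.8, and once group means were removed it was 0.73, with 12 pairs above 0.8. Adipoq followed Retn with r = 0.93 (rho = 0.93, n = 19), 0.97 less group means, 0.98 less group and slide means, and 0.94 without the 2 farthest arrays. Adipoq followed Cidec with r = 0.95 (rho = 0.91) and Acvr1c with r = 0.94 (rho = 0.94), or 0.96 for each less group means and 0.93 and 0.94 without those 2 arrays. Adipoq and Cfd gave r = 0.70 (rho = 0.72), 0.88 less group means, 0.87 less slide means too, and 0.70 without the 2 arrays. Lep kept to Adipoq less closely, with r = 0.67 (rho = 0.59), 0.75 less group means and 0.56 without the 2 arrays. Lep and Cfd, whose means lay on opposite sides in CTR-HFD except with normexp, gave r = 0.04 (rho = 0.09), and 0.41 less group means. Fabp4 and Pparg gave r = 0.80 (rho = 0.81) with group means or without them. All arrays share the scaling to their own 75th percentile.

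**Figure D4:**
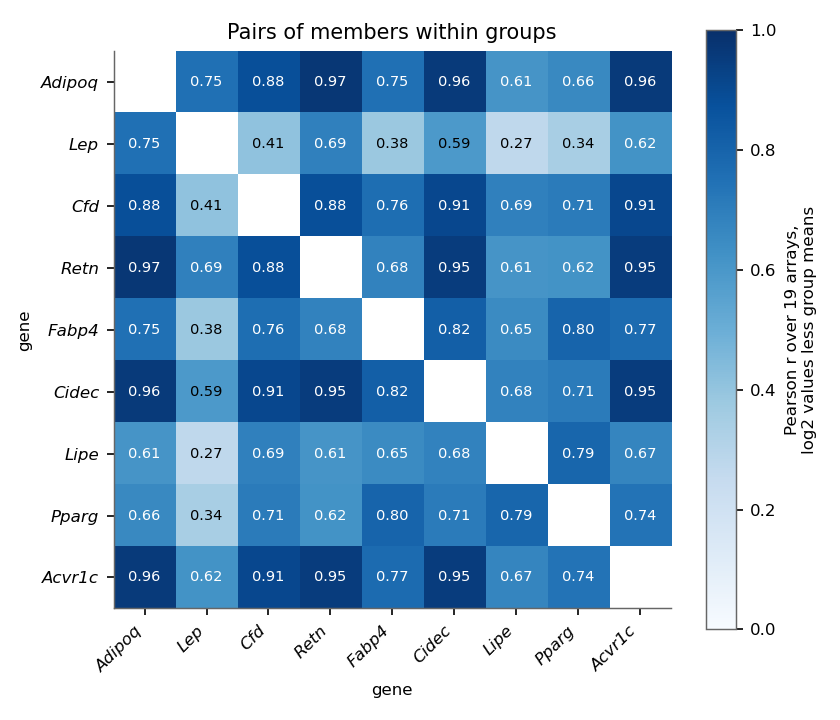
Each cell gives Pearson's r between 2 members over 19 arrays, on log2 values less their group means. Adipoq, Retn, Cidec and Acvr1c have r of 0.95 to 0.97 with each other, and the row of Lep holds the lowest values, down to 0.27 with Lipe.

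Because most members moved together with Adipoq from array to array, each was also fitted with the log2 level of Adipoq as a covariate, a choice made after seeing the data. What remains is the part of a member that Adipoq does not follow, and it shows unequal change, not which of the genes changed. On normal chow, the log2 level of Cfd less that of Adipoq on the same array was 2.51, 2.28, 2.88, 2.88 and 2.94 in CTR (2.70 ± 0.29, SD, n = 5) and 3.0, 2.70, 1.63, 2.27 and 3.07 in AR113Q (2.53 ± 0.60, SD, n = 5). On the high-fat diet it was 1.77, 1.24, 1.88 and 0.95 in CTR (1.46 ± 0.44, SD, n = 4) and 3.24, 2.65, 3.24, 2.56 and 3.59 in AR113Q (3.06 ± 0.44, SD, n = 5). All 4 CTR-HFD arrays lay below all 5 CTR-NCD and all 5 AR113Q-HFD arrays, while AR113Q-NCD replicate 3 lay among them. Between AR113Q-HFD and CTR-HFD Cfd was the 1 of 8 members whose groups did not overlap less Adipoq, as was the case for 0.188% of probes. Between CTR-HFD and CTR-NCD it was 2 of 8, against 0.0470% of probes, as Cidec less Adipoq was -0.38 to -0.28 against -0.95 to -0.50 through A_55_P1969131, but overlapped through A_55_P1969128. The subtraction does not act alike on genes that follow Adipoq and on other genes, so these shares are no like-for-like background.

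With Adipoq as a covariate, 1 of 8 members, Cfd, passed between AR113Q-HFD and CTR-HFD, where 17.6% of probes passed, so the count was not above that share. Like the subtraction, a covariate does not act alike on genes that follow it and on other genes. The shares of probes with a covariate are thus no like-for-like background. Cfd was 1.55 higher in AR113Q-HFD (SE 0.30, 95% interval 0.92 to 2.19, a fold of 2.93, adjusted p = 0.00184 in limma). Over 25 other settings of this fit, which include each array left out and the slide as a block, it was 1.42 to 1.69 (adjusted p = 0.000727 to 0.0103 in limma). With Plin1, a droplet coat gene that is not a member, as the covariate in place of Adipoq, it was 1.30 (adjusted p = 0.00343 in limma). Between AR113Q-NCD and CTR-NCD limma with Adipoq as the covariate called 0 of 8 members, with 1 at an unadjusted p under 0.05, and 18.0% of probes. Cfd differed there by -0.15. The interaction of Cfd in this fit was 1.70 (SE 0.41), which did not pass after adjustment over all probes (adjusted p = 0.626 in limma), where 0 of 8 members and 0% of probes were called and 2 members had an unadjusted p under 0.05. Between CTR-HFD and CTR-NCD, Cfd differed by -1.23 (SE 0.29), again without passing (adjusted p = 0.336 in limma), where 0 of 8 members and 0% of probes were called and 4 members had an unadjusted p under 0.05. The share of all probes at an unadjusted p under 0.05 was not counted with a covariate. These counts of members at an unadjusted p therefore have no background. Averaged over diets, 2 of 8 members passed, Cfd at 0.70 (adjusted p = 0.0155 in limma) and Retn at 0.31 through A_55_P1984806 (adjusted p = 0.0336 in limma), where 29.4% of probes passed. The other Retn probe, A_55_P2428514, was at 0.25 and did not pass (adjusted p = 0.0878 in limma), and neither did Cfd with Plin1 in place of Adipoq (0.44, adjusted p = 0.0926 in limma).

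With Adipoq as a covariate Lep differed by -1.03 between AR113Q-HFD and CTR-HFD (adjusted p = 0.0862 in limma) and by -0.72 averaged over diets (adjusted p = 0.0528 in limma). With Plin1 as the covariate Lep was lower in AR113Q averaged over diets, at -0.91 (adjusted p = 0.0487 in limma), where it and Cidec were the 2 of 9 members that passed and 29.9% of probes did. Cidec passed there at -0.23 and between AR113Q-HFD and CTR-HFD at -0.40 (adjusted p = 0.048 and 0.0298 in limma), through A_55_P1969131 and not A_55_P1969128. With Adipoq as the covariate the same Cidec probe was at 0.03 and -0.15, and neither passed (adjusted p = 0.864 and 0.636 in limma). With Plin1 as the covariate, Cidec and Cfd were the 2 of 9 members that passed between AR113Q-HFD and CTR-HFD, against 18.3% of probes. Without a covariate the Acvr1c probes gave a genotype difference of -0.25 and -0.29 on chow, and neither passed in limma. With single arrays left out these probes ran from -0.65 to 0.12 and from -0.61 to 0.01. Over the other settings they ran from -0.73 to -0.15 and from -0.81 to -0.19. Relative to Plin1 as the covariate, Acvr1c was lower in AR113Q mice on chow through both, at -0.65 and -0.67 (adjusted p = 0.00962 and 0.0174 in limma), as the 1 of 9 members that passed, against 18.1% of probes. On the high-fat diet they were 0.13 and 0.07, and the interaction of Acvr1c, at 0.78 and 0.74, did not pass (adjusted p = 0.701 and 0.727 in limma). With Adipoq as the covariate the chow differences of Acvr1c were -0.37 and -0.40 and did not pass (adjusted p = 0.134 and 0.0864 in limma). On the high-fat diet they were 0.41 and 0.35 in that fit, and did not pass either (adjusted p = 0.12 and 0.175 in limma). Between CTR-HFD and CTR-NCD limma with Plin1 called 0 of 9 members and 0% of probes, with Lep, Cfd and Cidec at an unadjusted p under 0.05. The share of all probes at an unadjusted p was not counted in this fit either.

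**Figure D5:**
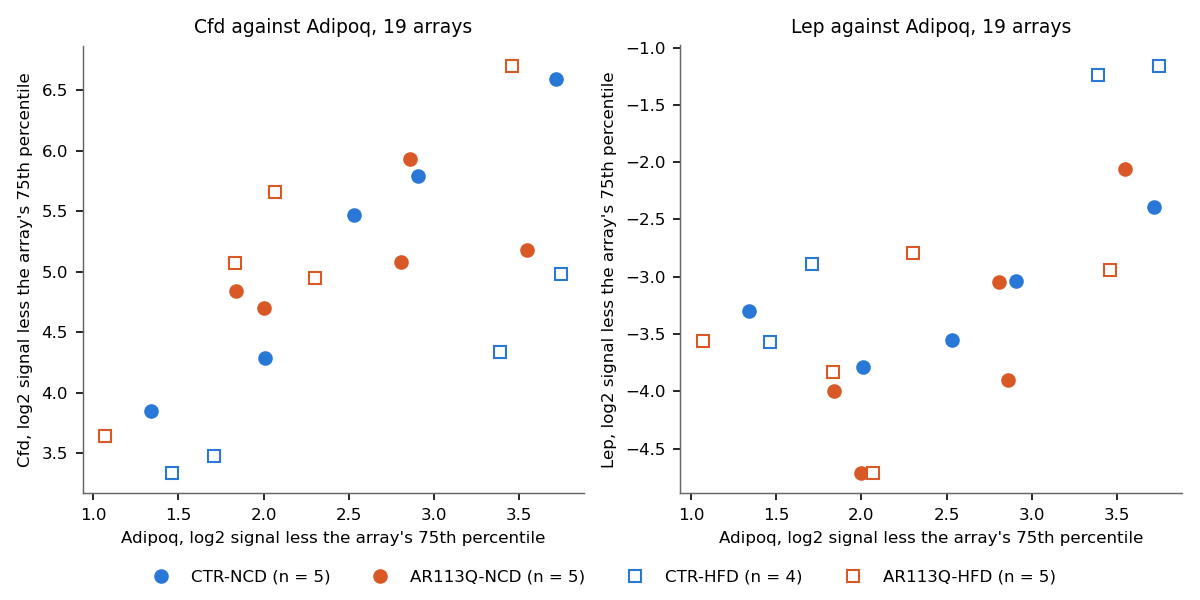
Cfd (left) and Lep (right) against Adipoq on the same 19 arrays, all as log2 signal less the 75th percentile of the array, with filled circles for NCD, open squares for HFD, blue for CTR and orange for AR113Q. At a given level of Adipoq the CTR-HFD squares have the lowest Cfd, while the pair of CTR-HFD arrays with high Adipoq has the highest Lep.

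The genes most like the members were found by Pearson's r with the members' mean over 19 arrays, among 24732 other genes, whose median r was -0.02 and of which 68, or 0.275%, had r above 0.8. The 12 highest were Acp5 (0.975), Abhd15 (0.959), Plin1 (0.959), Slc7a10 (0.954), Tusc5 (0.947), Tmem45b (0.937), Prkar2b (0.935), Cd1d1 (0.929), Gnai1 (0.929), Aoc3 (0.927), 1300015D01Rik (0.926) and Pde3b (0.921). With group means removed all 12 remained between 0.932 and 0.979. Several of them are known in adipocytes, such as Plin1, which coats the droplet, and Pde3b, which carries the effect of insulin on lipolysis. The members' mean followed Plin1 with rho = 0.98, and with r = 0.97 less group and slide means.

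Of 26 other genes known from white adipocytes, genotype on chow gave 5 that were higher and 2 that were lower in AR113Q mice, with a median of 0.33 against -0.06 over all genes, while 17.6% of all probes passed. The higher ones were Agpat2 (1.26), Fam13a (1.20), Thrsp (0.95), Dgat2 (0.89) and Pnpla3 (1.74 and 0.88 through its probes), and the lower ones Car3 (-1.27) and Gpd1 (-0.55). A Pnpla3 probe turned its direction under normexp background correction. Between AR113Q-HFD and CTR-HFD, Fam13a and Pnpla3 were higher and Car3 and Gpd1 lower, with a median of -0.16 against -0.08, while 17.9% of all probes passed. Pnpla3 passed there through A_55_P2025514 (0.83) but not through A_51_P389265, the probe at 1.74 on chow. Averaged over diets 5 of 26 genes were higher and 3 lower, near the 29.3% of all probes that passed, with Cebpa at 0.68 (adjusted p = 0.0126 in limma) and Aoc3 at -0.44 through A_55_P1958043, but -0.18 through its brightest probe (adjusted p = 0.633 in limma). The mean of this list followed the members' mean closely (r = 0.96, rho = 0.97, n = 19, 0.95 without 2 arrays and 0.99 less group and slide means). The called genes, however, mostly did not. Gpd1, Agpat2, Dgat2, Fam13a and Car3 had r of 0.05, 0.12, 0.10, -0.04 and 0.13 with the members, and Thrsp and Pnpla3 0.33 and 0.32. Less group means, Car3, Thrsp and Pnpla3 had 0.32, 0.39 and 0.48. Slc7a10, Tusc5, Adrb3 and Rbp4 had r of 0.95, 0.95, 0.92 and 0.89 with the members. Cebpa, a factor of adipocyte differentiation, followed the members with r = 0.71, and 0.95 less group means. Several of these 26 genes are also made by muscle fibers, Car3 and Gpd1 among them.

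Of 15 fat storage genes shared by muscle and adipocytes, G0s2 (1.09) and Plin2 (0.62) were higher and Slc2a4 (-0.50) was lower in AR113Q mice on chow, while Slc2a4 (-0.77) and Fabp5 (-0.44) were lower in AR113Q-HFD than in CTR-HFD. Beside the calls in this paragraph, 17.6% of all probes passed on chow and 17.9% on the high-fat diet. A gene was called through any of its probes, so counts of genes and shares of probes are not like for like. Of 14 adipogenesis regulators, Nr1h3 was higher and Srebf1 (-1.37), Zfp423 and Zfp467 were lower on chow, and the last 3 were lower on the high-fat diet too, although the brightest Zfp467 probe passed on neither (-0.39 and -0.34). Of 14 receptors and ligands of the adipokine and activin systems, Acvr2a (-0.63), C3 (-0.62 through A_55_P2038525, with the brightest probe at -0.61 and not past the threshold), Cdh13 (-0.31) and Gdf11 (-0.96) were lower on chow, among them Acvr2a, a type II receptor of the activins that pairs with type I receptors, and Cdh13, which binds adiponectin. Acvr2a was lower on the high-fat diet as well (-0.67). Of 7 paralogs of members found in muscle, Ppara (1.15) and Ppard (0.23), relatives of Pparg, were higher and Cideb, a relative of Cidec, was lower on chow through A_55_P2008056 (-0.51) but not through its brightest probe (-0.11, adjusted p = 0.842 in limma), and limma called 0 on the high-fat diet, where 3 had an unadjusted p under 0.05. The means of these 4 lists had r of 0.17, 0.10, 0.17 and -0.49 with the members, and less group means 0.04, 0.08, 0.29 and -0.62 (n = 19). Fabp3, the muscle relative of Fabp4, had r of -0.53 with the members.

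Other cell types that the samples could hold were read through marker lists. Of all probes, 17.6% passed for genotype on chow, 17.9% on the high-fat diet and 29.3% averaged over diets. The unadjusted p was under 0.05 for 28.5% of probes on chow and 29% on the high-fat diet. Of 11 brown adipocyte genes tested, 0 passed in limma on chow, with 4 at an unadjusted p under 0.05, and Cox8b was lower on the high-fat diet (-0.32), a direction that turned under quantile normalization and in the authors' values. Ucp1, which defines brown adipocytes, was well above background on 9 of 19 arrays. Of 12 genes of fibro-adipogenic progenitors, the cells from which adipocytes in muscle can arise, Lum was higher on chow (0.28) and on the high-fat diet (0.42). Of 10 macrophage genes limma called 0 within either diet, with 2 at an unadjusted p under 0.05 in each. Of 6 endothelial genes Kdr was lower on the high-fat diet through A_51_P316553 (-0.68) but not through its brightest probe (-0.30, adjusted p = 0.286 in limma), and limma called 0 on chow, with 0 at an unadjusted p under 0.05. Limma called 0 of 4 red blood cell genes tested within either diet, with 1 and 0 at an unadjusted p under 0.05, and of 6 Schwann cell genes S100b on chow (0.58) and 0 on the high-fat diet, where 2 had an unadjusted p under 0.05. Averaged over diets, limma called, besides genes named above, Cidea (1.68) and Mrc1 (0.32) higher and Col15a1 (-0.44), Slc4a1 (-0.56) and the fat storage gene Gpam (-0.23) lower, and through a probe that is not the brightest Itgam (-0.68), Mbp (-0.38) and the regulator Rxra (-0.32). The brightest probes of Itgam, Mbp and Rxra were at 0.04, -0.16 and -0.21. The r of these list means with the members was -0.24 for brown adipocytes, 0.10 for progenitors, 0.05 for macrophages, 0.00 for endothelium, -0.08 for red blood cells and -0.04 for Schwann cells, and less group means -0.46, 0.11, 0.01, -0.23, -0.13 and -0.16 in this order (n = 19).

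All 8 fast fiber genes were lower in AR113Q mice on either diet, with medians of -0.39 and -0.49, where Myh4, Tnni2 and Tnnt3 on chow and Acta1, Tnni2 and Tnnt3 on the high-fat diet turned under quantile normalization, Tnni2 on chow with normexp, and Myh4 and Tnni2 on chow and Tnni2 on the high-fat diet in the authors' values. Of 7 slow fiber genes, limma called 0 on either diet, with 3 on chow and 0 on the high-fat diet at an unadjusted p under 0.05, and medians of 2.32 and 1.13. Averaged over diets limma called Atp2a2 higher (1.23, adjusted p = 0.0391), and for diet averaged over genotypes it called 0 of 7, with 7 at an unadjusted p under 0.05 and a median of -2.07. Of all probes, 17.6% passed for genotype on chow, 17.9% on the high-fat diet and 29.3% averaged over diets. For diet averaged over genotypes it was 0.0250% of probes. The fast fiber list had r of -0.06 with the members and the slow fiber list -0.31, or -0.28 and -0.59 less group means (n = 19). Their part in the values of the members was not tested.

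In the promoter table used, which was built from RefSeq and lacked Fabp4, 8 of the 9 members had an entry, with 13 starts between them. Letters were searched on both strands in the 250 bases before each start, and in 32851 promoters of the same length. CCAAT occurred in 33.8% of all promoters and in those of Adipoq, where it lay 34, 27 and 7 bases before the start, and of 2 of 3 starts of Pparg. TTGCNNAA occurred in 9.56% of all promoters and in those of Lep, 55 bases before the start, and of 1 of 2 starts of Cidec and 1 of 3 of Pparg. TATAA occurred in 22.8% and in those of Lep, 32 and 31 bases before the start, and of 1 of 3 starts of Pparg, and AGGTCA, the core letters bound by many nuclear receptors, in 14% and in 2 of 3 starts of Pparg. The windows printed for Retn and Cfd held none of these letters, although Retn followed Adipoq closely from array to array and Cfd did so within groups. A match is a description of letters and not a site, and its absence says only that the letters are not in this window.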

How the data were processed

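Per the file headers, the authors' deposited spot intensities were made with Feature Extraction 10.7.3.1, which subtracted local background and applied no scaling between arrays. The authors' value table, used as an alternative, is on a scale like log2, with its normalization not stated (column medians 7.59 to 7.65, r with the own array 0.979 to 0.982). Intensities of 43020 spots were taken to log2, outlier spots left out, spots of a probe averaged and the 75th percentile of the array subtracted. Of 39429 probes, 32026 were well above background on at least 4 arrays. The 4 groups were fitted in limma 3.58.1 (R 4.3.3), with Benjamini-Hochberg adjustment over all probes, after a test on simulated data. For medians a member was read by its brightest probe. Each array had 67.1% to 80.1% of probes well above background, and the number of arrays limits the precision.

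As alternatives, arrays were scaled by quantiles or by their median, background was corrected by normexp with an offset of 50, and the authors' values were fitted. Others were filters on dim probes, outlier spots kept, slide or replicate number as a block, array weights, trended and robust variance, the compared groups alone, other call rules, a median over probes, each array left out, and Adipoq or Plin1 as a covariate, chosen after seeing the data. Named genes are the members, the 12 most like them, and list genes past the threshold, or else the brightest. The lists are other white adipocyte genes, shared fat storage genes, adipogenesis regulators, adipokine and activin receptors and ligands, muscle paralogs, brown adipocyte, progenitor, macrophage, endothelial, red blood cell, Schwann cell, fast and slow fiber genes. Members and lists were chosen with earlier results of these data known. Elovl3 was too dim to test. Python 3.11.15 with matplotlib 3.10.9 drew the figures.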

Additional observations from a re-analysis of the deposited data

Results flagged for a closer look

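Fabp4 in CTR-NCD replicate 4 read 6.35, while the other 4 CTR-NCD arrays lay between 5.63 and 5.82. The gap to the nearest array was 0.73 of the range of the group. Of 52 groups of values checked this way, 1 stood apart like this, which is not more than the about 1 in 20 that chance gives.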

How the results depend on the processing

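Under 34 planned settings, each array left out counted apart, the members gave 2547 fold changes, of which 3 passed the threshold, all of Lep and each with 1 array left out. Of the 2547, 115 had the other sign, 8 of them with a main value above 0.3 in size, and none of these values had passed. Leaving out arrays, the number of members called ran from 0 to 1 between AR113Q-HFD and CTR-HFD and for genotype averaged over diets, and was 0 in the other comparisons in limma. At an unadjusted p under 0.05 it was 1 between AR113Q-HFD and CTR-HFD, 1 between AR113Q-HFD and AR113Q-NCD, 1 for genotype averaged over diets and 1 for diet averaged over genotypes. With Adipoq as a covariate it was 1 between AR113Q-HFD and CTR-HFD and 2 averaged over diets, and with Plin1 it was 1 between AR113Q-NCD and CTR-NCD, 2 between AR113Q-HFD and CTR-HFD and 2 averaged over diets. The cause of these differences was not tested.

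Leaving out arrays, the members' median ran from -0.01 to 0.40 between AR113Q-NCD and CTR-NCD, from -0.38 to -0.04 between AR113Q-HFD and CTR-HFD, from -0.16 to 0.04 between CTR-HFD and CTR-NCD, from -0.44 to -0.16 between AR113Q-HFD and AR113Q-NCD, from -0.11 to 0.06 for genotype averaged over diets, from -0.36 to -0.05 for diet averaged over genotypes and from -0.57 to -0.17 for the interaction. Normexp background correction moved the median of all genes to -0.51, -0.03, -0.57, -0.07, -0.30, -0.33 and 0.47 in these comparisons, in this order, and the members' median less it was 0.80, -0.12, 0.48, -0.23, 0.37, 0.09 and -0.91.

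With the replicate number as a block, the members' median was 0.16, -0.15, -0.08, -0.33, -0.07, -0.19 and -0.44 in the same order, and limma called 0 members in each. Same-numbered arrays of different groups had a mean r of 0.22, against -0.06 for other numbers, and 19 of 27 pairs were above 0.1, not all of them. Except for CTR-HFD replicate 4 the number is also that of the slide, where arrays of different groups had a mean r of 0.26, with 22 of 27 pairs above 0.1 against 24 of 108 on other slides, so number and slide cannot be told apart, and the number was not taken as a pairing.

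The limits are the few arrays per group, the wide spread of 6 members, and the missing link between samples and mice. RNA of adipocytes inside the muscle and of fat around it cannot be told apart.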
